A study of Erythranthe guttata with 80 samples.

Results

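Among the 28140 genes counted in *Mimulus guttatus* (yellow monkeyflower), 4 genes of the auxin pathway are described here. They are Migut.F01336, Migut.F01339 and Migut.F01341, annotated as auxin-responsive genes and carrying close numbers on linkage group F, and Migut.N02182, the ortholog of the *Arabidopsis* gene *SHY2*. The genes were taken from the auxin genes that the study singled out for a large expression difference between its ecotypes in leaves of the 2leaf stage, and the 3 F genes were also summed. Transcripts were measured by 3′-Tag-Seq, which reads the end of each messenger RNA, in 80 plants with 1 tissue per plant. The coastal perennial accession SWB-4 (Coast) gave 50 plants and the inland annual accession LMC-17 (Inland) gave 30. Leaf pairs of Coast were taken at the 2leaf, 4leaf, 6leaf and 8leaf stages, leaf pairs of Inland at 2leaf and 4leaf, and floral buds were taken from both before flowering, with 10 plants in each of these 8 groups. Inland plants often flowered after their second pair of true leaves, so Inland had no 6leaf or 8leaf samples. All plants were raised in 1 growth chamber from self-fertilised families, with no treatment. Each ecotype was represented by a single accession, so a difference between ecotypes and a difference between these accessions cannot be told apart.

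Auxin is a growth hormone that acts in the nucleus by bringing about the breakdown of Aux/IAA proteins, repressors that otherwise hold auxin response factors inactive on their target genes. In *Arabidopsis*, *SHY2* (also called *IAA3*) encodes an Aux/IAA repressor and takes part in root meristem size and in the response of shoots to light. Aux/IAA genes, GH3 genes (which encode enzymes that join auxin to amino acids) and the small auxin-up RNA (SAUR) genes are the classical families whose transcripts rise after auxin is given. The sources used here describe the F genes only as auxin-responsive, and their family is not named.

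Library totals ran from 1256776 to 6090402 counts with a median of 3839604, and none of the libraries were identical. Levels are given as CPM, the counts of a gene relative to the library total, scaled by the TMM method and not by gene length. Tests were edgeR quasi-likelihood tests, a gene was called at a Benjamini-Hochberg adjusted p under 0.05 over all genes tested, and log2 fold changes between ecotypes are Coast minus Inland. Across 7 photosynthesis and chloroplast genes, picked by the study on these same samples, the summed level was 2973 to 7291 CPM in leaf libraries and 325 to 800 CPM in bud libraries, and each of them had counts in every group. Bulk tissue was sequenced, so fewer cells expressing a gene and less RNA per cell cannot be told apart. Of the 4 genes, 4 passed the filter on low counts in the 60 libraries of the stages that both ecotypes had, and 3 passed it in the 50 Coast libraries, where Migut.F01336 had too few counts to be tested. In the 60 libraries Migut.F01336 passed only through Inland and Migut.F01341 only through Coast. With the filter applied without groups both were left out, so their ecotype tests depend on passing in the ecotype where they were high.

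The F genes were not all high in the same ecotype. Migut.F01336 and Migut.F01339 were high in Inland and low in Coast, whereas Migut.F01341 was high in Coast and close to absent in Inland. At 2leaf, where the genes had been chosen, these values are a description and carry no test. Migut.F01336 ran from 9.75 to 29.8 CPM in Inland plants (median 19.1) and from 0 to 1.84 CPM in Coast plants (median 0.51). Migut.F01339 ran from 33.03 to 71.07 CPM in Inland (median 50.3) and from 2.87 to 9.00 CPM in Coast (median 6.20). Migut.F01341 ran from 18.8 to 35.7 CPM in Coast (median 23.7) and from 0 to 0.89 CPM in Inland (median 0.48). For none of them did the ranges of the ecotypes overlap. The log2 fold changes at 2leaf were -4.71 for Migut.F01336, -2.99 for Migut.F01339 and 5.67 for Migut.F01341, and that of *SHY2* was -2.03. The study kept genes past 2 in either direction in a fit of its own, and *SHY2* lay closest to that limit. Among the 7 other auxin genes named below, Migut.N02078 (*GH3*), at 0.65, lay inside that limit and the rest lay at -2.11 or beyond. At 2leaf, 50.2% of 16735 genes were called, 25.5% higher and 24.7% lower in Coast.

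**Figure D1:**
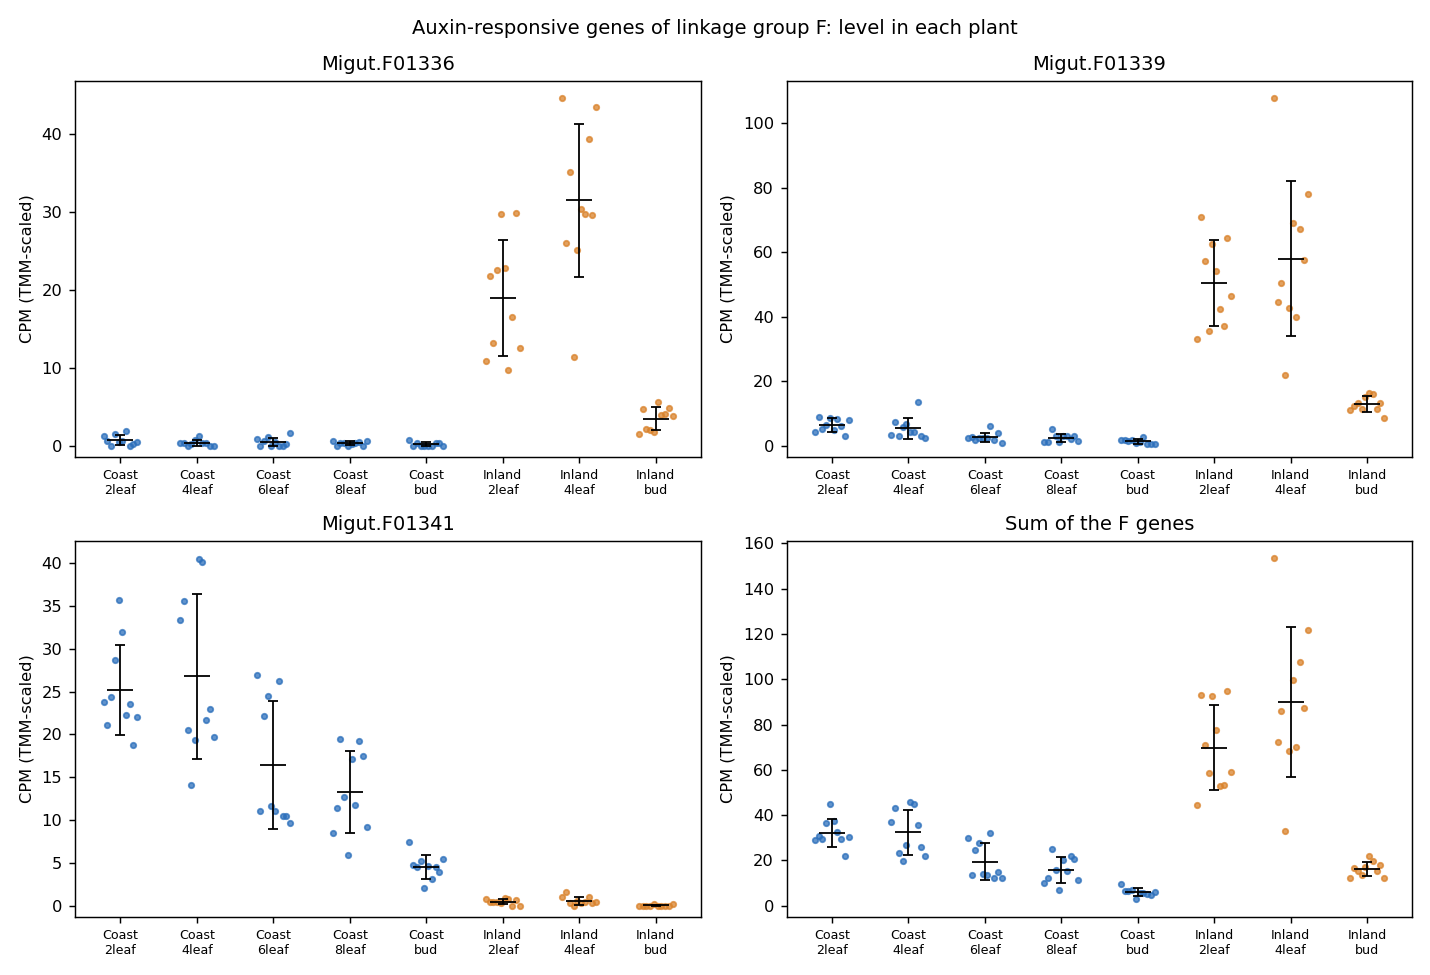
CPM (TMM-scaled) of the 3 auxin-responsive F genes and of their sum in each of the 80 plants, by group; points are plants, black bars are the mean and SD of 10 plants. Migut.F01336 and Migut.F01339 are high in Inland leaves (means of 19.0 to 57.96 CPM), Migut.F01341 is high in Coast leaves (means of 13.3 to 26.8 CPM), and all of them are lower in the buds of the ecotype where they are high.

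The contrast that chose the genes did not use the 4leaf and bud plants, and the same opposed pattern was measured in them. In 4leaf leaves, Migut.F01336 was at 11.4 to 44.6 CPM in Inland (median 30.0, mean 31.5 ± 9.83, SD, n = 10) and at 0 to 1.25 CPM in Coast (median 0.28, mean 0.34 ± 0.38). The Inland plants all lay above every Coast plant, and 3 Coast libraries had no count. Migut.F01336 was lower in Coast by a log2 fold change of -6.29 (SE 0.38, adjusted p = 8.87e-22). The Coast level rested on 13 counts over 10 libraries against 961 in Inland, and the ratio of Inland to Coast from these sums was 85.6 (exact 95% interval 49.8 to 161, counting error only).

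Migut.F01339 was the most abundant F gene by read count in Inland 4leaf plants, at 21.8 to 108 CPM (median 54.03, mean 57.96 ± 24.03), and ran from 2.42 to 13.7 CPM in Coast (median 4.31, mean 5.36 ± 3.36). The groups did not overlap, although the highest Coast plant, plant 8, stood well above the next at 7.34 CPM. The log2 fold change was -3.40 (SE 0.24, adjusted p = 6.3e-19), and the ratio of Inland to Coast was 10.8 (interval 9.28 to 12.6, counting error only). Migut.F01341 went the other way, with 14.1 to 40.5 CPM in Coast 4leaf plants (median 22.3, mean 26.8 ± 9.61) and 0 to 1.58 CPM in Inland (median 0.42, mean 0.59 ± 0.47). It was higher in Coast by 5.41 on the log2 scale (SE 0.28, adjusted p = 2.9e-25), again without overlap, with 912 counts in Coast and 18 in Inland, a ratio of 43.8 (27.5 to 74.2, counting error only).

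In buds the levels were lower and each gene was high in the same ecotype as in leaves. Migut.F01336 was at 1.43 to 5.65 CPM in Inland buds (median 3.86) and at 0 to 0.74 CPM in Coast buds, where 6 of 10 libraries had no count (log2 fold change -4.17, SE 0.44, adjusted p = 2.82e-12). Migut.F01339 was at 8.43 to 16.4 CPM in Inland buds (median 12.7) and at 0.42 to 2.57 CPM in Coast buds (median 1.32; log2 fold change -3.36, SE 0.28, adjusted p = 2.34e-16). Migut.F01341 was at 2.08 to 7.41 CPM in Coast buds (median 4.58), while 8 of 10 Inland bud libraries had no count and the highest was at 0.25 CPM. Every one of these bud comparisons was free of overlap between the ecotypes. The fitted log2 fold change of Migut.F01341 was 5.77 (SE 0.42, adjusted p = 1.89e-18). Both the value and its SE depend on the prior count of the fit, because Inland buds held 2 counts in all. For this gene DESeq2 gave a larger SE of 0.66. From the sums, 275 counts in Coast and 2 in Inland, its ratio was 92.1 with a counting interval of 25.3 to 764. In the 8 Inland libraries at 0, a count of 0 allowed a level of up to 0.35 to 1.70 CPM, depending on their depth.

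At each of these stages all 4 genes were called, against 57.5% of 16735 genes tested at 4leaf (28.6% higher and 28.8% lower in Coast) and 64% in buds (31.4% higher and 32.7% lower). A difference past 2 on the log2 scale was found for 10.1% of genes at 4leaf and 9.5% in buds. By size, Migut.F01336, Migut.F01341 and Migut.F01339 ranked 134, 252 and 693 of 16735 at 4leaf, and 354, 150 and 566 in buds. All 4 genes had been chosen for a difference past 2 between the same accessions at 2leaf, so these calls and ranks carry the effect of that choice. Migut.F01336 and Migut.F01341 also passed the filter on low counts only through the ecotype where they were high. Libraries had been made in 4 pools, and the sign of each ecotype difference was the same within all 4. Within pools the 4leaf log2 fold changes ran from -7.51 to -5.09 for Migut.F01336, from -3.98 to -3.28 for Migut.F01339 and from 4.64 to 6.36 for Migut.F01341.

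Summed over the F genes, the ecotypes were closer. The sum was at 33.2 to 153 CPM in Inland 4leaf plants (median 86.7) and at 20.0 to 46.02 CPM in Coast 4leaf plants (median 31.2), so that the ranges overlapped. It was lower in Coast by a log2 fold change of -1.47 (SE 0.18, adjusted p = 1.38e-10). In buds the sum was at 12.4 to 22.03 CPM in Inland and at 2.98 to 9.82 CPM in Coast, with no overlap and a log2 fold change of -1.49 (SE 0.19, adjusted p = 1.55e-09). At 2leaf, as a description, it was -1.12, with 44.7 to 94.9 CPM in Inland and 21.9 to 44.8 CPM in Coast. In ratios of mean CPM, the Inland sum was 2.17 times the Coast sum at 2leaf, 2.77 times at 4leaf and 2.71 times in buds, far less than the ratios of the single genes.

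The make-up of the sum differed between the ecotypes. Of the reads assigned to the F genes in a Coast library, Migut.F01341 took a mean share between 76.01% (buds, SD 9.94) and 83.2% (8leaf, SD 4.52). In Coast, Migut.F01339 took 14.1% to 21.6% and Migut.F01336 0.96% to 2.70%. In Inland, Migut.F01339 took 72.5% ± 6.49 at 2leaf, 63.8% ± 4.19 at 4leaf and 78.9% ± 7.43 in buds, and Migut.F01341 took under 1%. The share of Migut.F01336 in Inland was 26.8% ± 6.58 at 2leaf, 35.6% ± 4.09 at 4leaf and 20.8% ± 7.42 in buds. The lowest share of Migut.F01341 in any Coast library was 55.2%, and its highest in any Inland library was 2.19%. These are shares of reads and are not scaled by gene length. Both accessions were aligned to a single reference genome, and whether reads of the accessions were placed differently among these F genes was not tested.

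**Figure D2:**
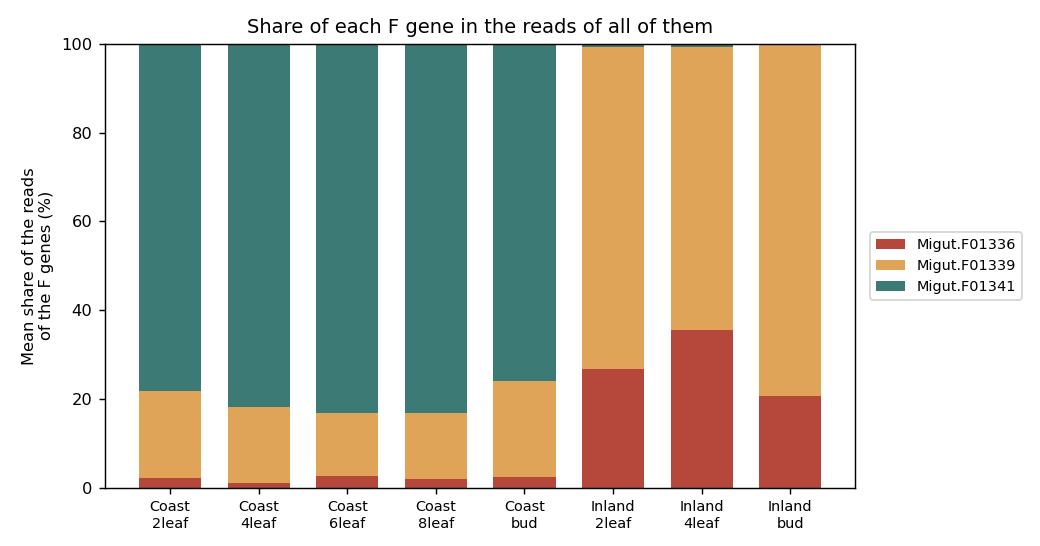
Mean share, in percent, of the reads of the 3 F genes that each gene took, in the 8 groups (10 plants each; stacked bars reach 100%). Migut.F01341 takes 76.01% to 83.2% in Coast groups, and Migut.F01339 takes 63.8% to 78.9% in Inland groups.

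The F genes fell from 4leaf leaves to buds in both ecotypes, except Migut.F01336 in Coast, which was not called. In Inland, Migut.F01336 fell by 3.13 on the log2 scale (SE 0.28, adjusted p = 2.62e-15) and Migut.F01339 by 2.12 (SE 0.22, adjusted p = 5.72e-13). In Coast, Migut.F01341 fell by 2.53 (SE 0.20, adjusted p = 7.39e-18) and Migut.F01339 by 2.08 (SE 0.30, adjusted p = 7.9e-09). For each of these the ranges of leaf and bud plants did not overlap, except for Migut.F01339 in Coast, whose lowest 4leaf plant (2.42 CPM) lay below its highest bud plant (2.57 CPM). Migut.F01341 in Inland was also called lower in buds (-2.89, SE 0.62, adjusted p = 3.99e-05), on 18 counts at 4leaf and 2 in buds. Migut.F01336 in Coast gave -1.01 (SE 0.66, adjusted p = 0.168), on 13 and 10 counts. The sum fell by 2.42 in Coast (SE 0.19) and by 2.41 in Inland (SE 0.18).

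Against the background, 68.3% of genes were called between these stages in Coast (38% higher and 30.4% lower in buds) and 69.2% in Inland (37.9% and 31.3%). The photosynthesis genes were lower in buds as well, with no overlap of leaf and bud libraries in their summed level, and their part in the F gene values was not tested. A change of the ecotype difference from 4leaf to buds was examined with the interaction of ecotype and stage. It was called for 0 of the 4 genes, with 32.5% of all genes called (17.6% higher and 14.9% lower), and 1 of the 4 had an unadjusted p under 0.05. DESeq2 called 1 of the 4, as did voom with limma. For the sum it was -0.02 (adjusted p = 0.968), for Migut.F01339 0.04 (adjusted p = 0.987) and for Migut.F01341 0.36 (adjusted p = 0.442). Migut.F01336 lay close to the threshold at 2.12 (adjusted p = 0.0588), the drop in Inland being the larger, and 6 of 14 alternative settings put it past the threshold (adjusted p from 0.0141 to 0.0763 over them).

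Coast was also sampled at 6leaf and 8leaf, and the F genes that could be tested there were lower from 6leaf onwards. Migut.F01341 ran from 9.72 to 26.9 CPM at 6leaf (median 11.3) and from 5.94 to 19.5 CPM at 8leaf (median 12.2), against a 4leaf median of 22.3 CPM. Its fall from 4leaf to 6leaf was 0.72 on the log2 scale (log2 fold change -0.72, SE 0.21, adjusted p = 0.0164), with overlapping ranges. Migut.F01339 was at 0.79 to 5.95 CPM at 6leaf (median 2.29), lower than at 4leaf by a log2 fold change of -1.11 (SE 0.31, adjusted p = 0.0109). Without plant 8 of Coast 4leaf it was -0.84 and not called (adjusted p = 0.0594). From 6leaf to 8leaf edgeR called neither gene, and neither had an unadjusted p under 0.05 (Migut.F01339 -0.08, 95% interval -0.72 to 0.55; Migut.F01341 -0.30, interval -0.72 to 0.12), where 0.676% of 15976 genes were called, and DESeq2 and voom with limma called none of the tested genes either. From 8leaf to bud Migut.F01341 fell by 1.50 (SE 0.23, adjusted p = 9.06e-08) and Migut.F01339 by 0.86 (SE 0.33, adjusted p = 0.0185), where 73.8% of genes were called, 38.4% higher and 35.5% lower in buds. Without plant 3 of Coast 8leaf, Migut.F01339 gave -0.71 there and was not called (adjusted p = 0.0519). Between 4leaf and 6leaf 14.7% of genes were called, 6.17% higher and 8.54% lower at 6leaf. The sum followed Migut.F01341, with medians of 30.5, 31.2, 14.3, 15.6 and 5.89 CPM at 2leaf, 4leaf, 6leaf, 8leaf and bud. Migut.F01336 stayed between 0 and 1.84 CPM in every Coast plant of the 5 stages, on 10 to 21 counts per group.

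Ordered by median, Migut.F01336 and Migut.F01339 were highest in Inland 4leaf, then Inland 2leaf, then Inland buds, followed by the Coast groups. The ranges of Inland 4leaf and 2leaf overlapped for both genes, and both leaf groups lay clear of Inland buds. Inland buds overlapped with the Coast group next in order, Coast 2leaf, only at the edges of the ranges. The highest Coast 2leaf plant was at 1.84 CPM for Migut.F01336 and 9.00 CPM for Migut.F01339, above the lowest Inland bud plants (1.43 and 8.43 CPM) and below the Inland bud medians (3.86 and 12.7 CPM). Plant 8 of Coast 4leaf, at 13.7 CPM of Migut.F01339, was the Coast plant above that median. Migut.F01341 was highest in Coast 2leaf and 4leaf, then 8leaf and 6leaf, whose ranges overlapped with each other, and then Coast buds. Coast buds lay clear of Coast 2leaf, 4leaf and 6leaf above and of every Inland group below, but overlapped with Coast 8leaf, whose lowest plant (5.94 CPM) was below the highest bud plant (7.41 CPM).

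The genes with neighbouring numbers were examined for the same pattern. Of the 23 other genes numbered from F01326 to F01351, 9 had enough counts to be tested with the 60 libraries. At 4leaf 1 of the 9 was higher in Coast, 6 were lower and 2 were not called, where 28.6% of all genes were called higher and 28.8% lower (median log2 fold change -1.02 against -0.01 over all genes). In buds the counts were again 1, 6 and 2, where 31.4% of all genes were called higher and 32.7% lower (median -1.73 against -0.01). Migut.F01338, numbered between Migut.F01336 and Migut.F01339, was at 14.7 to 57.5 CPM in Inland 4leaf plants (median 38.9) and at 5.52 to 14.0 CPM in Coast 4leaf plants (median 8.49). It was lower in Coast by -2.06 at 4leaf (SE 0.19, adjusted p = 1.55e-14) and by -2.06 in buds (SE 0.25, adjusted p = 1.97e-10). From leaf to bud Migut.F01338 fell by 3.12 on the log2 scale in both ecotypes. Migut.F01338 thus resembled the Inland-high F genes in direction, with a smaller difference between the ecotypes.

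Migut.F01340, between Migut.F01339 and Migut.F01341, was not called at either stage, at -0.24 (SE 0.23, adjusted p = 0.405) in 4leaf leaves and 0.46 (SE 0.28, adjusted p = 0.15) in buds. Its levels overlapped between the ecotypes, at 2.28 to 6.95 CPM in Coast 4leaf and 2.14 to 10.1 CPM in Inland 4leaf. Migut.F01344 was the tested neighbour called higher in Coast, by 1.72 at 4leaf (SE 0.34, adjusted p = 1.72e-05) and by 2.98 in buds (SE 0.47, adjusted p = 1.57e-07). The direction of neighbours with too few counts to be tested is not described here. Migut.F01347 was lower in Coast by -3.06 at 4leaf (SE 0.55, adjusted p = 2.87e-06) and by -3.18 in buds (SE 0.46, adjusted p = 2.29e-08). Of the remaining tested neighbours, Migut.F01342 (-1.18 at 4leaf and -1.73 in buds), Migut.F01345 (-2.07 and -1.06) and Migut.F01346 (-1.02 and -2.52) were lower in Coast at both stages. Migut.F01333 was called at 4leaf (-0.55, adjusted p = 0.0129) and not in buds (0.004, adjusted p = 0.989), and Migut.F01351 in buds (-2.02, adjusted p = 0.000417) and not at 4leaf (-0.58, adjusted p = 0.236). Not every tested gene of this run of numbers had a called ecotype difference, and both directions occurred among those that did. From 4leaf to buds, 8 of the 9 neighbours fell in Coast, where 30.4% of all genes were called lower in buds, and 6 of 9 in Inland, where 31.3% were. With no annotation or sequence of these genes used here, whether the neighbours belong to the same family is not stated.

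**Figure D3:**
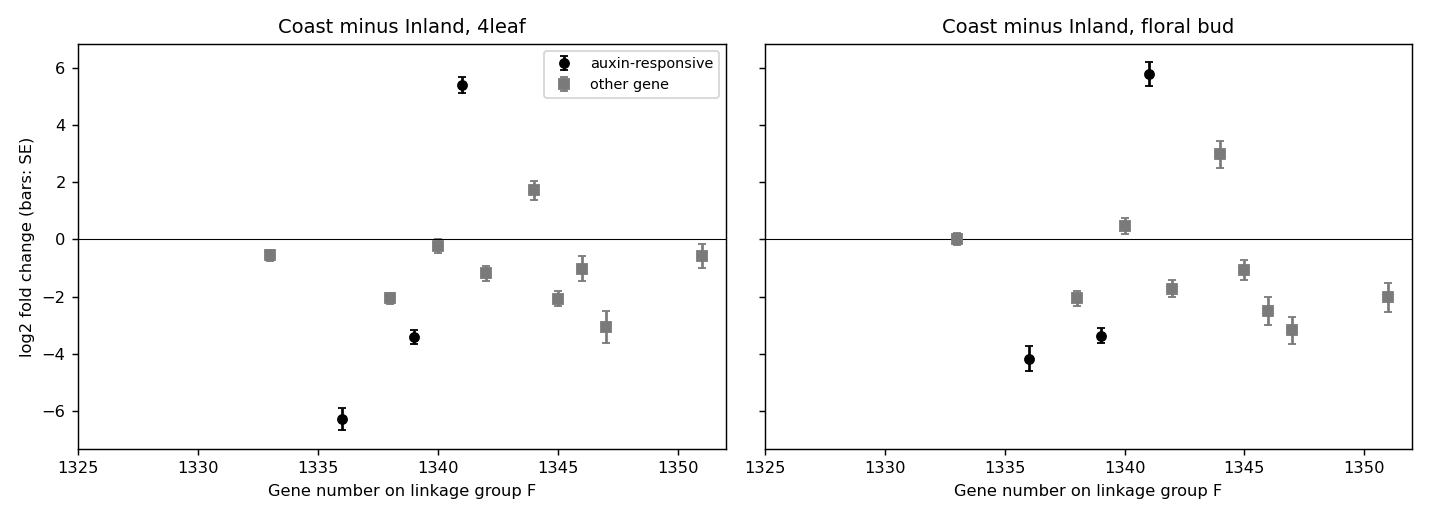
Log2 fold change of Coast minus Inland for the tested genes from Migut.F01326 to Migut.F01351, at 4leaf (left) and in floral buds (right). Bars are standard errors of the edgeR fit, which for Migut.F01336 and Migut.F01341 were smaller than those of DESeq2. Migut.F01341 stands at 5.41 and 5.77, Migut.F01336 at -6.29 and -4.17, and the tested neighbours lie between -3.18 and 2.98.

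*SHY2* (Migut.N02182) was higher in Inland than in Coast at every shared stage, and unlike most F genes it was not called lower in buds than in leaves. In 4leaf leaves it was at 21.4 to 50.4 CPM in Inland (median 41.8, mean 39.5 ± 9.12) and at 1.04 to 22.2 CPM in Coast (median 4.98, mean 6.84 ± 6.45). The ranges overlapped through a single Coast plant, plant 8, since the next highest Coast plant was at 11.9 CPM. The log2 fold change was -2.51 (SE 0.28, adjusted p = 2.06e-11), and it was -4.06 to -1.69 within the library pools. In buds *SHY2* was at 28.7 to 68.2 CPM in Inland (median 40.4, mean 45.02 ± 15.2) and at 3.09 to 9.97 CPM in Coast (median 6.50, mean 6.47 ± 2.11), with no overlap. There the log2 fold change was -2.85 (SE 0.27, adjusted p = 8.34e-14), or -3.08 to -2.48 within pools.

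At 2leaf, where the gene had been chosen and no test is given, *SHY2* was at 14.4 to 51.1 CPM in Inland (median 23.96) and at 2.78 to 12.7 CPM in Coast (median 6.19). In summed counts the ratio of Inland to Coast was 4.33 at 2leaf, 5.72 at 4leaf (interval 4.98 to 6.59) and 6.61 in buds (5.92 to 7.39), counting error only. By size, *SHY2* ranked 1165 of 16735 genes at 4leaf and 790 in buds. The interaction of ecotype with stage was -0.34 (adjusted p = 0.532), so a change in the ecotype difference from 4leaf to buds was not called.

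*SHY2* was not called in any of the stage comparisons tested. From 4leaf to buds it differed by -0.09 in Coast (95% interval -0.65 to 0.48, adjusted p = 0.81) and by 0.25 in Inland (interval -0.24 to 0.74, adjusted p = 0.37). With library sizes alone in place of TMM scaling these values became 0.65 and 0.87, both called, in a setting that moved the median of all genes by about as much. Along the Coast leaf stages the medians were 6.19, 4.98, 4.61 and 5.76 CPM at 2leaf, 4leaf, 6leaf and 8leaf, and the ranges of neighbouring groups all overlapped. The 6leaf value differed from 4leaf by -0.27 (interval -1.03 to 0.49), the 8leaf value from 6leaf by 0.12 (-0.63 to 0.87) and the bud value from 8leaf by 0.09 (-0.64 to 0.81), none of them called. In the order of medians, Inland 4leaf, Inland buds and Inland 2leaf came first, each overlapping with the next, followed by the Coast groups. Inland buds lay clear of every Coast group. Inland 4leaf and Inland 2leaf overlapped with Coast 4leaf through its plant 8, at 22.2 CPM, and with no other Coast group.

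In Coast 6leaf and 8leaf, the plants of library pool 1 were the highest for *SHY2*. In Coast 8leaf the 3 plants of pool 1 were at 9.31 to 12.8 CPM and those of the other pools at 0.78 to 6.91 CPM. In Coast 6leaf the 2 plants of pool 1 were at 11.0 and 12.1 CPM and the others at 2.09 to 8.14 CPM. In Coast 4leaf pool 1 held the highest plant, at 22.2 CPM, while its lowest, at 5.51 CPM, lay inside the range of the other pools (1.04 to 11.9 CPM). In Coast 2leaf the plants of pool 1, at 6.295 and 7.03 CPM, lay inside the range of the others (2.78 to 12.7 CPM). No separation by pool 1 was seen in Inland buds either, at 36.1 to 64.6 CPM in pool 1 and 28.7 to 68.2 CPM in the others. In Inland 2leaf the pool 1 plants, at 25.4 to 30.0 CPM, lay above all others except plant 5 of pool 2 (51.1 CPM). In Coast buds they were at 6.77 and 9.97 CPM, the latter being the highest plant of the group. In Inland 4leaf they were at 33.8 and 45.6 CPM, inside the range of the others (21.4 to 50.4 CPM). The ecotype difference kept its sign in all 4 pools at 4leaf and in buds, and with library pool as a term it was -2.61 and -2.82.

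**Figure D4:**
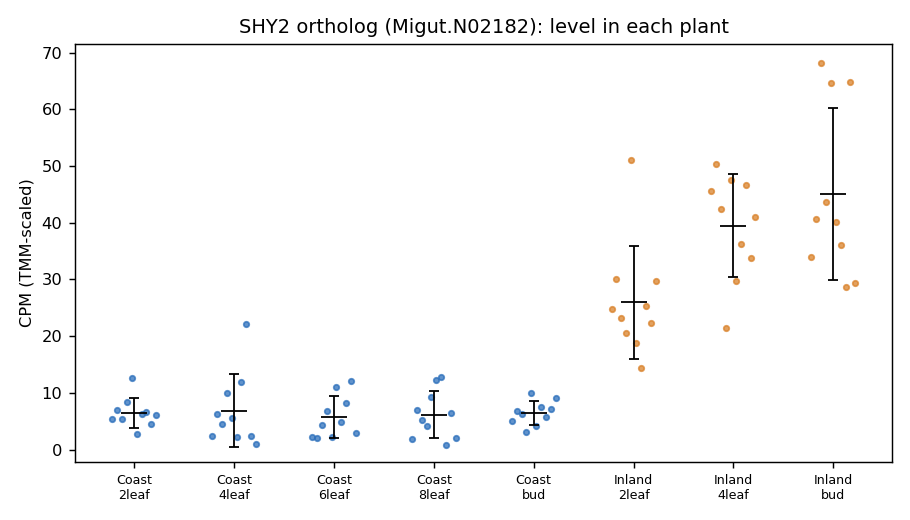
CPM (TMM-scaled) of *SHY2* (Migut.N02182) in each of the 80 plants, by group; points are plants, black bars the mean and SD of 10 plants. Group means run from 5.68 to 6.84 CPM in Coast and from 26.01 to 45.02 CPM in Inland, with bud means of 6.47 and 45.02 CPM.

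The other auxin genes that the study named on these samples were compared with the 4 genes, as a list of 7 whose direction at 2leaf is not independent evidence. For 3 of them, Migut.N02078, Migut.H01293 and Migut.F01717, which the study took as central genes of co-expression modules, the 4leaf and bud plants entered the choice as well, so their values at those stages are not independent evidence either. The others had been listed for a difference past 2 between the same accessions at 2leaf. The counts and medians of the list at 4leaf and in buds therefore carry the effect of these choices, unlike those of all genes. At 4leaf 0 of the 7 were higher in Coast, 6 were lower and 1 was not called, where 57.5% of all genes were called and 28.8% were lower. The median log2 fold change was -2.06 against -0.01 over all genes tested. In buds 2 were higher, 4 were lower and 1 was not called, where 64% of all genes were called, 31.4% higher and 32.7% lower (median -1.70 against -0.01). Migut.N01563, also an auxin-responsive gene, ran from 11.1 to 125 CPM in Inland 4leaf plants and from 1.98 to 9.69 CPM in Coast 4leaf plants (log2 fold change -3.40, SE 0.28, adjusted p = 3.63e-16). From leaf to bud it fell by 5.20 in Inland and by 3.81 in Coast. Migut.H01293, named by the study as auxin-responsive, was lower in Coast at 4leaf (-5.60, SE 0.83, adjusted p = 4.16e-08), where Inland plants spread from 0 to 79.4 CPM, and was not called in buds (-1.70, adjusted p = 0.102). Migut.F01717 (*AMI1*, an amidase that makes auxin from indole-3-acetamide) was lower in Coast by -1.93 at 4leaf and -1.91 in buds, and fell to buds in both ecotypes by 2.12 and 2.14.

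Genes of the *ILR1*-like amidohydrolase family, whose *Arabidopsis* members release auxin or jasmonate from amino acid conjugates, were not uniformly lower in Coast buds. Migut.C01122 (*ILL6*) was lower in Coast at 4leaf (-2.06, SE 0.24, adjusted p = 4.79e-11) and higher in Coast buds (0.60, SE 0.21, adjusted p = 0.0102), and its interaction was called (adjusted p = 8.5e-10). The other *ILL6* ortholog, Migut.N03278, was lower in Coast at 4leaf (-1.69, adjusted p = 8.13e-10) and in buds (-0.47, adjusted p = 0.0391), and its interaction was called as well (adjusted p = 0.00081). Migut.F00137 (*ILL3*) stayed lower in Coast at 4leaf (-4.27) and in buds (-3.14), and was higher in buds than in 4leaf leaves in both ecotypes, by 2.49 and 1.36. Migut.N02078 (*GH3*) was at 27.5 to 216 CPM in Coast buds and 2.80 to 40.5 CPM in Inland buds, higher in Coast by 3.27 (SE 0.30, adjusted p = 2.08e-14), while no leaf plant exceeded 2.31 CPM.

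Over all 80 libraries, the gene whose log2 CPM was most like the F sum among 17132 genes was Migut.F01338 (Pearson's r = 0.95), followed by Migut.K01266, Migut.E01243, Migut.K01459 and Migut.C00038 (0.94 to 0.93). For *SHY2* they were Migut.C00485, Migut.J00052, Migut.G00408, Migut.N02107 and Migut.J01356 (0.89 to 0.88). These coefficients are descriptions, because libraries of a group share ecotype and tissue, and r over all of them mixes differences between and within groups. Within groups, 11 correlations of log2 CPM over 10 plants each were computed. In Inland 4leaf plants Migut.F01336 and Migut.F01339 were high in the same plants, with r = 0.91 (permutation p = 4e-04, adjusted p = 0.0044) and Spearman's rho = 0.86 (permutation p = 0.00272, adjusted p = 0.0299). Without the 2 plants farthest from the median of Migut.F01336, r was 0.75. In Inland 2leaf plants r was 0.57 (permutation p = 0.0872, adjusted p = 0.267), and in Inland buds it was 0.19 (permutation p = 0.598, adjusted p = 0.731). Plant 4 of Inland 4leaf, lowest for both genes at 11.4 and 21.8 CPM, was also the library least like the rest of its group over all genes (r = 0.928 of log2 CPM). The sum of the F genes and *SHY2* gave r from -0.56 to 0.60 over the 8 groups, none passing the adjusted threshold. A pool held 2 or 3 plants of a group, too few for a correlation within it.

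**Figure D5:**
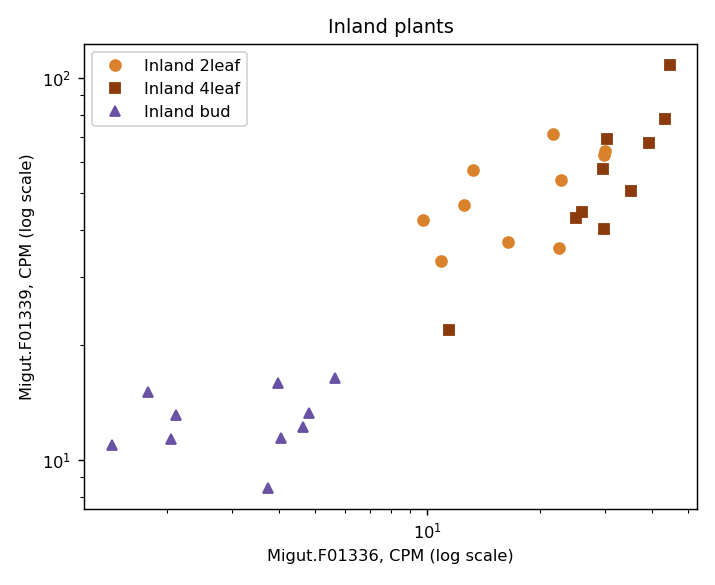
Migut.F01339 against Migut.F01336, both in CPM on log axes, in the 30 Inland plants; circles are 2leaf, squares 4leaf and triangles buds. The 4leaf plants lie along a rising line (r = 0.91), and bud plants form a separate cluster at 1.43 to 5.65 CPM of Migut.F01336.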

How the data were processed

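The sample labels gave each plant's group, number and library pool. The deposited table held counts, whole numbers per gene that the authors made before any normalisation: reads were trimmed with Cutadapt, placed on the v2.0 reference genome of the species with BWA-MEM, filtered with SAMtools for high-quality primary alignments and counted with HTSeq 0.6.1 by strand. In general, such filtering can drop reads shared by near-identical copies, and a read from an accession that differs from the reference can align poorly; whether either touched the F genes was not tested. The table had 28140 genes, 2988 of them with a total of 0, 6 lines of labels and 0 columns without a sample. Library totals are given in the results; they limit the precision of genes with few counts.

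Tests used edgeR 4.0.16 in R 4.3.3 (filterByExpr on the design with minimum count 10 and minimum total 15, TMM, quasi-likelihood F test, Benjamini-Hochberg adjustment over all genes). The 60 libraries of 2leaf, 4leaf and bud were fitted with 6 group means (16735 genes), and the 50 Coast libraries with 5 (15976 genes). For the sum, the rows of the F genes were replaced by their sum. Standard errors were the log2 fold change divided by the square root of F, intervals were 1.96 SE on either side, and log2 CPM used a prior count of 2. Correlations used 1e+05 permutations, two-sided. The exact intervals of count ratios (95% level) and the floors of libraries without a count (3 counts) cover counting error only. Intervals of log2 fold changes come from the fit, which includes variation between plants. For genes close to absent in an ecotype the SEs, and so the intervals, can still be too small. For the ecotype difference of Migut.F01336 DESeq2 gave an SE of 0.46 at 4leaf and 0.52 in buds. For Migut.F01341 it gave 0.38 and 0.66, and all of these were larger than the SEs of edgeR. The edgeR fit was also run on simulated counts with planted differences, for Coast against Inland at 4leaf alone. That simulation did not cover the fits of all groups, the interaction, the sum or genes close to absent in an ecotype. Alternatives used limma 3.58.1 with voom, DESeq2 1.42.0, other scaling factors, other filters, library pool or plant number as a term, all libraries in a single fit, and fits without certain libraries.

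The genes and lists were chosen with earlier results of these data known. Named were the 4 genes and their sum, 7 other auxin genes, the neighbours tested in the 60 libraries, each called in some contrast, and the 5 genes most like the sum and *SHY2*; Migut.F01340, which was called for stage only, is covered by the same rule. No sequence is given.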

Additional observations from a re-analysis of the deposited data

Results flagged for a closer look

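Dixon's criterion compares the gap between an outermost plant and the nearest plant with the range of the group. In 6 of the 40 checks of a gene or the F sum within a group, 1 plant of 10 lay past it. About 1 of 20 groups pass by chance where values are normally distributed. CPM was not log-transformed for these checks and every flagged plant lay at the high end, so the share expected by chance is not known here. In Coast 4leaf, plant 8 was high for both Migut.F01339 (13.7 CPM, the next plant at 7.34 CPM) and *SHY2* (22.2 CPM, the next at 11.9 CPM). Migut.F01339 was also high in plant 3 of Coast 8leaf (5.13 CPM, next 3.09 CPM). *SHY2* was high in plant 5 of Inland 2leaf (51.1 CPM, next 30.0 CPM). Migut.F01336 was high in plant 6 of Coast 4leaf (1.25 CPM, next 0.66 CPM) and in plant 1 of Coast bud (0.74 CPM, next 0.33 CPM), both on few counts.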

How the results depend on the processing

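The 51 values were recomputed under 15 alternatives. Of the recomputed values 735 stayed the same, 5 lost their call, 7 gained a call, 2 moved and 1 reversed. A tested value counted as the same on its side of the threshold, and an uncalled value could change sign. For example, the uncalled interaction of Migut.F01341 was -0.59 under voom and limma. Values at 2leaf had to keep their sign and move by less than the SD between plants, and counts of genes to stay within 1.5 times. Every ecotype difference of the 4 genes and the sum at 4leaf and in buds kept its direction and its call. The interaction of Migut.F01336 passed the threshold under voom and limma (1.90, adjusted p = 0.0287), DESeq2 (2.03, 0.0141), a term for library pool (2.21, 0.0497), library size alone (2.10, 0.0432), upper-quartile factors (2.25, 0.0425) and without 4 libraries taken from an earlier description of these data (2.33, 0.0334). The cause was not tested. The 4 libraries were Inland 4leaf plant 4, Inland bud plants 6 and 7, and Coast 2leaf plant 9. Counted from the library least like its group, they ranked 1, 3, 9 and 47 of 80, so not all of them stood apart. Library size alone moved the median of all genes from leaf to bud to 0.81 in Coast and 0.72 in Inland. In that setting *SHY2* was called higher in buds in Coast (0.65, reversed) and in Inland (0.87), below and above these medians. It also gave 4115 genes called from 4leaf to 6leaf in Coast (2350 with TMM, 83.7% higher against 41.9%), Migut.F01341 at -0.51 there and Migut.F01339 at -0.46 from 8leaf to bud, neither called. DESeq2 called 211 genes from 6leaf to 8leaf (108 with edgeR). Upper-quartile factors moved the median of the interaction over all genes to 0.14 (67.6% of calls higher against 54.1%).

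Leaving out single libraries was tried after seeing the data. The fall of Migut.F01339 from 4leaf to 6leaf ran from -1.11 to -0.84 and was not called without plant 8 of Coast 4leaf (adjusted p = 0.0594), nor without it and 2 others together (-0.84, adjusted p = 0.052). Its fall from 8leaf to bud ran from -0.89 to -0.71 and was not called without plant 3 of Coast 8leaf (adjusted p = 0.0519). With the plant number as a replicate block, no call of the 4 genes changed (Migut.F01341 at 4leaf 5.40, *SHY2* -2.57), and 10127 genes were called at 4leaf. Plants with the same number did not deviate together (correlations from -0.43 to 0.32), so the numbers do not pair plants. With filterByExpr given no groups, Migut.F01336 and Migut.F01341 in the 60 libraries and Migut.F01339 in Coast were filtered out and gave no value. Low counts limit Migut.F01336 in Coast and Migut.F01341 in Inland.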
